A study of Mus musculus with 3 samples.

Results

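Cholesterol synthesis and cholesterol efflux were followed in liver monocytes through 8 genes, taken by their symbols from the 53802 gene identifiers of the count matrices. Hmgcs1, Sqle, Idi1 and Insig1 stand for synthesis, and Abca1, Abcg1, Nr1h3 and Mylip for efflux under the liver X receptors (LXR). In the livers of mice given an acetaminophen overdose, cells were gated on Gpnmb or C1q macrophage markers. Cells of both gates held more RNA of all 4 efflux genes than Ly6Chi monocytes of the same library. Abca1 led, at log2 differences of 2.13 ± 0.11 and 2.03 ± 0.09 (SE of the edgeR fit, with the spread moderated across genes). The gated cells held less of Idi1, at -2.04 ± 0.25 and -1.15 ± 0.19, while Hmgcs1 was not called in either gate. Deletion of Commd10 in myeloid cells was followed by no called change in any of the 8 genes over all cells.

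The study sequenced single cells sorted as Ly6Chi monocytes from the liver 24 h after acetaminophen. The tested library, knockout 4, came from LysMDCommd10 mice, in which a Cre driven by the LysM promoter deletes Commd10, and 2 libraries, control 1 and control 3, came from Commd10fl/fl mice, which carry the floxed gene. Every mouse was a C57BL/6 male aged 8 weeks that went without food for 12 h before an intraperitoneal dose of acetaminophen at 300 mg/kg, with chow back after 2 h, so every library comes from an injured liver and none from an untreated one. LysM is active in monocytes, macrophages and neutrophils alike. Whether a library is 1 mouse or a pool is not given by the labels, and the p-values below cover the spread from library to library, which may be technical.

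Cells keep their free cholesterol within narrow limits through a pair of opposed programmes. When sterols in the endoplasmic reticulum are low, the transcription factor SREBP-2 (encoded by Srebf2) is released and switches on the enzymes of synthesis and sterol uptake. When sterols are plentiful, oxysterols and synthesis intermediates activate the LXR proteins, which switch on the transporters that move cholesterol out of the cell; a macrophage that has taken up dead cells or lipoproteins is the textbook setting for this second programme.

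The matrices held 5152 barcodes in knockout 4, 4814 in control 1 and 8109 in control 3, where the study states 5229, 4860 and 8149 cells. They carried 30302932, 40092348 and 72867668 UMIs (unique molecular identifiers, each standing for 1 captured RNA molecule). After removal of barcodes with under 500 genes or over 10% mitochondrial UMIs, and of cells with lymphocyte RNA, 4440 cells of knockout 4, 4075 of control 1 and 7407 of control 3 were kept, with a median of 6873, 8783 and 8163 UMIs per cell. Pairs of libraries shared between 8 and 26 cell barcodes. All 8 markers of Ly6Chi monocytes were detected in every library, at 6481 to 9572 UMIs per 1000000 in sum. Commd10 itself had 8.61 counts per 1000000 UMIs (CPM) in knockout 4, against 17.3 CPM in control 1 and 10.3 CPM in control 3, a log2 difference of -0.67 ± 0.32 (SE; adjusted p = 0.640, edgeR quasi-likelihood test); a 3′ tag may lie outside the deleted part, so these values do not check the genotype.

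The sorted cells were not uniform, so 8 groups were set by gates on marker genes, none of which is among the 8 genes or the pathway lists. The Gpnmb gate (Gpnmb, Spp1, Trem2 and others) held 739 cells in knockout 4, 419 in control 1 and 477 in control 3. The C1q gate (C1qa, C1qb, C1qc and others) held 407, 381 and 490 cells in the same order of libraries, the MHC class II gate 690, 538 and 1367, the patrolling gate (Ace, Spn, Treml4 and others) 389, 401 and 472, the neutrophil-like gate (S100a8, S100a9 and others) 627, 321 and 257, the interferon gate 110, 105 and 223, and the Arg1-high gate 1188, 335 and 195. Cells that passed the Ly6Chi gate and no other, 1158, 1242 and 3807 of them, were the group that each gate was set against. A further 1714 cells of knockout 4, 827 of control 1 and 1564 of control 3 passed the Ly6Chi cut and another gate. The other gates thus hold Ly6Chi-marked cells, and the share of such cells left out of the Ly6Chi group differed between libraries. In no gate were 388, 873 and 823 cells. The 7 gates overlap: of the Gpnmb gate, 71.3% of the cells in knockout 4, 47.0% in control 1 and 46.1% in control 3 were in another gate as well, and of the C1q gate 78.9%, 57.5% and 61.6%. All comparisons of a gate share the same Ly6Chi cells and many gated cells, so they are not independent of each other.

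**Figure D1:**
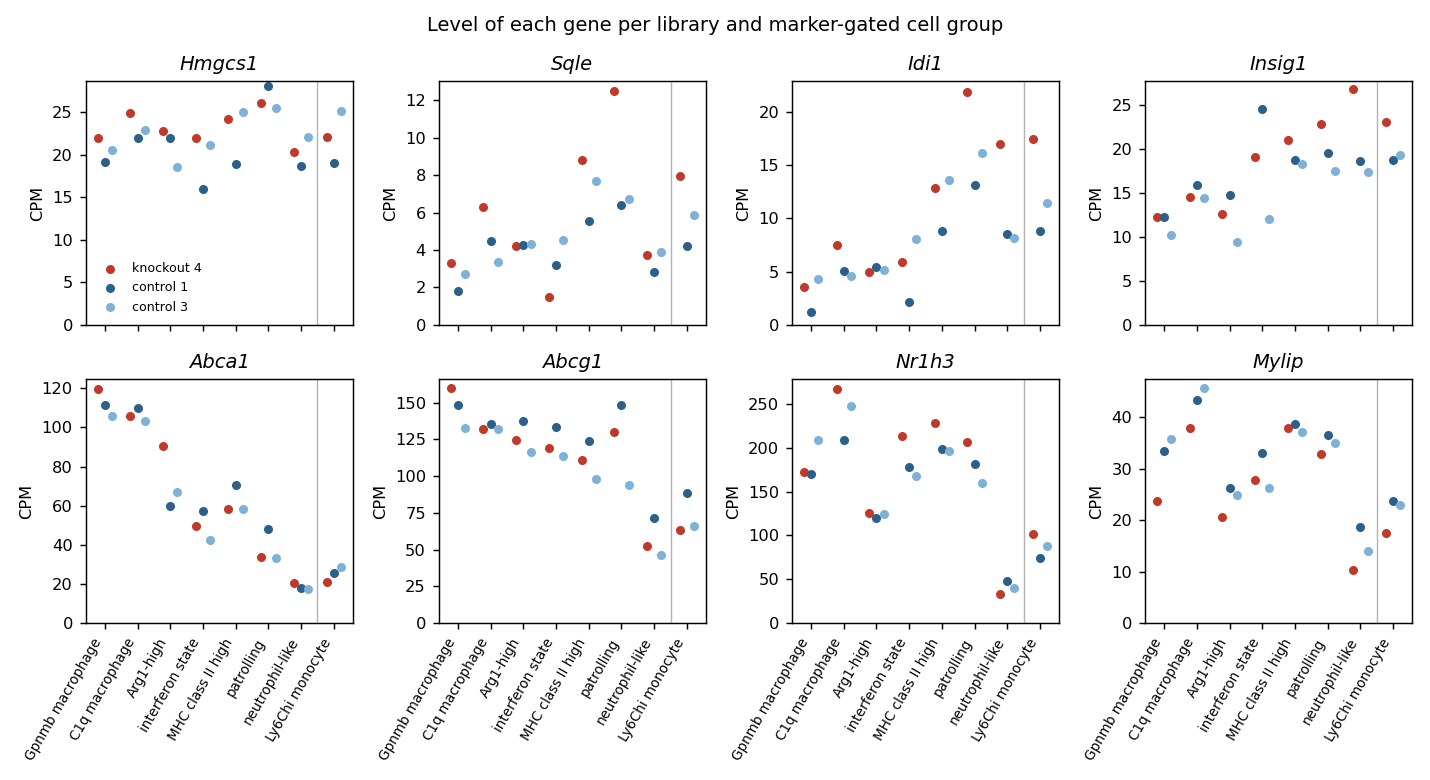
Level of each of the 8 genes in CPM (vertical axes, linear, from 0) in the 7 gates and, right of the grey line, in Ly6Chi monocytes; each point is 1 library's sum over the cells of that gate, with knockout 4 left of the 2 controls. Abca1 lies at 106 to 119.5 CPM in the Gpnmb gate and at 21.3 to 28.8 CPM in Ly6Chi monocytes, while Hmgcs1 stays between 15.99 and 28.0 CPM in every group.

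Promoters of the synthesis genes and of Abca1 are shown first, because the letters that SREBP-2 and its partner NF-Y are known to bind differ between these genes. The RefSeq promoter table (build GRCm38.p6) held 6 of the 8 genes, all but Sqle and Abcg1. Given here are the 250 bases before the annotated start, on the gene's strand and 5′ to 3′. Capitals mark the core of a sterol regulatory element, TCACNCCAC, and CCAAT, the NF-Y box, which reads ATTGG where it lies on the opposite strand. The Hmgcs1 stretch is chr13:119690101-119690350 (plus strand), that of Idi1 chr13:8885356-8885605 (plus strand), that of Insig1 chr5:28071162-28071411 (plus strand) and that of Abca1 chr4:53159896-53160145 (minus strand).
Hmgcs1: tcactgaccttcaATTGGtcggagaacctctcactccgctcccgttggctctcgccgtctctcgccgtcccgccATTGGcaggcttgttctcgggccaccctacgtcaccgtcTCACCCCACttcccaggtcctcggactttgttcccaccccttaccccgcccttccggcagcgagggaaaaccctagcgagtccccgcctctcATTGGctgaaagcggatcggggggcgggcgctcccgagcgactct
Idi1: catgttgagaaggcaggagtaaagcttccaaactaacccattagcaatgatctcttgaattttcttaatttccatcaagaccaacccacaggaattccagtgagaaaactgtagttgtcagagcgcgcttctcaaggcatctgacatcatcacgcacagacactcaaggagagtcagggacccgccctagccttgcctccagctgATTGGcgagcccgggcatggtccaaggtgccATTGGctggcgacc
Insig1: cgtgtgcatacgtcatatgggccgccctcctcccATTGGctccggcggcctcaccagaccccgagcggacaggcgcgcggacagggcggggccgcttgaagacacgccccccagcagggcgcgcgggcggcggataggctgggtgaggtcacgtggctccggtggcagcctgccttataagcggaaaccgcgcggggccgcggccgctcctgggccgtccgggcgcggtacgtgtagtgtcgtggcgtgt
Abca1: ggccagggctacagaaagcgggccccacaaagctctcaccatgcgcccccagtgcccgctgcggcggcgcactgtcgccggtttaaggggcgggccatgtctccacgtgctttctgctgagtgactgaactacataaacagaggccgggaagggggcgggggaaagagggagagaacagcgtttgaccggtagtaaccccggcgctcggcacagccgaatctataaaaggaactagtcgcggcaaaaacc

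Both strands of the full window, 250 bases before to 50 after the start, were searched. Hmgcs1 held 1 core TCACNCCAC and 4 CCAAT boxes. Idi1 held 2 CCAAT boxes, Insig1 1 and Mylip 3, with no core. Neither Abca1 nor Nr1h3 held either string. Over all 32851 promoters of the table the core was found in 1.24% and CCAAT in 37.4%. A direct repeat of the LXR type, AGGTCA followed after NNNN by AGGTCA, with up to 2 mismatches, was in 3.02% of promoters and in none of the 6 genes. These are matches of letters in a short window, not sites. A site with more mismatches than allowed would be missed, so a lack of matches does not show a lack of sites.

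Hmgcs1 (ENSMUSG00000093930, chr13:119690379-119708260, plus strand, GRCm38) encodes the enzyme that joins acetyl units into HMG-CoA, the precursor of mevalonate. Its level was 22.0 CPM in the Gpnmb gate of knockout 4, 19.2 CPM in that of control 1 and 20.6 CPM in that of control 3, against 22.0, 19.0 and 25.1 CPM in the Ly6Chi monocytes of these libraries. In the C1q gate it was 24.9 CPM in knockout 4, 21.9 CPM in control 1 and 22.9 CPM in control 3. These ranges overlap with that of Ly6Chi monocytes. The patrolling gate alone had all 3 sums above all 3 Ly6Chi sums, at 26.0, 28.0 and 25.5 CPM (0.24 ± 0.13, adjusted p = 0.192). Hmgcs1 was called in none of the 7 gates. The log2 difference was -0.11 ± 0.13 in the Gpnmb gate (SE of the edgeR fit, 95% interval -0.39 to 0.16, adjusted p = 0.534). In the C1q gate it was 0.04 ± 0.12 (95% interval -0.22 to 0.29, adjusted p = 0.843).

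Idi1 (ENSMUSG00000058258, chr13:8885501-8892451, plus strand) encodes the isomerase that makes dimethylallyl diphosphate, 1 of the building blocks of the sterol chain. It showed the widest contrast between gates among the synthesis genes. The Gpnmb gate had 3.58 CPM in knockout 4, 1.20 CPM in control 1 and 4.33 CPM in control 3, resting on 14, 4 and 16 UMIs. Ly6Chi monocytes had 17.4, 8.79 and 11.5 CPM, from 140, 108 and 445 UMIs, so every gated sum lay below every Ly6Chi sum. Idi1 was lower in the Gpnmb gate by a log2 difference of -2.04 ± 0.25 (adjusted p = 1.89e-06).

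The C1q gate had 7.49 CPM of Idi1 in knockout 4, 5.10 CPM in control 1 and 4.58 CPM in control 3, again below the lowest Ly6Chi value, with a log2 difference of -1.15 ± 0.19 (adjusted p = 0.000123). With every marker cut doubled, which keeps fewer and more strongly marked cells, Idi1 in the C1q gate was at -0.88 with an adjusted p of 0.191. Doubling also applied to the Ly6Chi group, so both sides of each such comparison changed. The Arg1-high gate had 4.96, 5.41 and 5.16 CPM of Idi1 (-1.34 ± 0.22, adjusted p = 0.000350). The patrolling gate was on the other side, with 21.9, 13.1 and 16.1 CPM (0.44 ± 0.15, adjusted p = 0.0398), a call that 6 of 9 alternatives lost: DESeq2 (0.44, adjusted p = 0.276), no library block (0.42, adjusted p = 0.420), doubled cuts (0.77, adjusted p = 0.209), thinned cells (0.47, adjusted p = 0.168) and the fits without control 1 (0.39, adjusted p = 0.184) or without control 3 (0.40, adjusted p = 0.166). The interferon gate had 5.87, 2.13 and 8.06 CPM (-0.997 ± 0.31, adjusted p = 0.0426), and with each cell thinned to 3000 UMIs the difference was -0.26 (adjusted p = 0.813). The interferon call was also lost with DESeq2 (-1.13, adjusted p = 0.176) and without the block (-1.06, adjusted p = 0.289). With 1 library left out in turn the value was -0.80 without control 1 (adjusted p = 0.212), -0.80 without knockout 4 (adjusted p = 0.239) and -1.77 without control 3 (adjusted p = 0.0293).

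Sqle (ENSMUSG00000022351, chr15:59315077-59331192, plus strand) encodes squalene epoxidase, which catalyses the first oxygen-requiring step towards sterols. It had 3.32 CPM in the Gpnmb gate of knockout 4, 1.80 CPM in that of control 1 and 2.70 CPM in that of control 3, against 7.96, 4.23 and 5.87 CPM in Ly6Chi monocytes. All 3 gated sums were below all 3 Ly6Chi sums, and the log2 difference was -1.21 ± 0.27 (adjusted p = 0.00126); at doubled marker cuts it was -0.99 (adjusted p = 0.0923). In the C1q gate, at 6.31, 4.50 and 3.38 CPM, Sqle overlapped with Ly6Chi monocytes and passed no threshold (-0.40 ± 0.25, adjusted p = 0.204). The highest single value of Sqle was 12.5 CPM, in the patrolling gate of knockout 4, where the 2 controls had 6.39 and 6.71 CPM.

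Insig1 (ENSMUSG00000045294, chr5:28071363-28078662, plus strand) encodes a membrane protein of the endoplasmic reticulum that holds SREBP back when sterols are high, and is itself an SREBP target. It had 12.3 CPM in the Gpnmb gate of knockout 4, 12.3 CPM in that of control 1 and 10.3 CPM in that of control 3, against 23.1, 18.8 and 19.3 CPM in Ly6Chi monocytes, with no overlap. The log2 difference was -0.83 ± 0.15 (adjusted p = 0.000205), and in thinned cells it was -0.62 (adjusted p = 0.0550). Insig1 was lower in the Arg1-high gate, at 12.6, 14.8 and 9.47 CPM (-0.72 ± 0.16, adjusted p = 0.00296), and in thinned cells it was -0.71 with an adjusted p of 0.0519. In the C1q gate, at 14.6, 15.9 and 14.5 CPM, it was lower by a smaller amount (-0.44 ± 0.13, adjusted p = 0.0130). That call was lost in thinned cells (-0.18, adjusted p = 0.604), with DESeq2 (-0.45, adjusted p = 0.124), without the block (-0.44, adjusted p = 0.0597) and without knockout 4 (-0.35, adjusted p = 0.0869), and doubled cuts moved it to -1.15 (adjusted p = 0.00970). The neutrophil-like gate, at 26.9, 18.7 and 17.4 CPM, did not differ from Ly6Chi monocytes beyond the spread (0.04 ± 0.13, adjusted p = 0.906).

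Abca1 (ENSMUSG00000015243, chr4:53030787-53159895, minus strand) encodes the transporter that hands cholesterol to lipid-poor apolipoprotein A-I. Its level in the Gpnmb gate was 119.5 CPM in knockout 4, 111 CPM in control 1 and 106 CPM in control 3, against 21.3, 25.7 and 28.8 CPM in Ly6Chi monocytes. The C1q gate had 106, 109.9 and 103 CPM, a range that overlaps with that of the Gpnmb gate. Below these came the Arg1-high gate with 90.5, 60.04 and 67.1 CPM and the MHC class II gate with 58.2, 70.7 and 58.2 CPM, whose ranges overlap. The interferon gate had 49.9, 57.6 and 42.3 CPM and the patrolling gate 33.8, 47.9 and 33.2 CPM, which overlap with each other and lie above Ly6Chi monocytes. The neutrophil-like gate had 20.7, 17.7 and 17.4 CPM, the lowest values of the gene, and all below the lowest Ly6Chi sum.

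The log2 difference of Abca1 from Ly6Chi monocytes was 2.13 ± 0.11 in the Gpnmb gate (adjusted p = 1.08e-11), 2.03 ± 0.09 in the C1q gate (adjusted p = 3.50e-11) and 1.52 ± 0.15 in the Arg1-high gate (adjusted p = 1.94e-06). It was 1.24 ± 0.08 in the MHC class II gate, 0.88 ± 0.15 in the interferon gate and 0.56 ± 0.13 in the patrolling gate, each called. The patrolling call was lost without control 1 (0.36, adjusted p = 0.103) and without the block (0.58, adjusted p = 0.0794). Neutrophil-like cells stood at -0.41 ± 0.14 (adjusted p = 0.109), and at -0.64 without knockout 4 (adjusted p = 0.0276). At doubled marker cuts the difference of Abca1 was 3.01 in the Gpnmb gate, 2.73 in the C1q gate, 1.99 in the MHC class II gate and 1.34 in the patrolling gate, and in thinned cells that of the interferon gate was 1.501.

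Abcg1 (ENSMUSG00000024030, chr17:31057675-31117988, plus strand) encodes a transporter that moves cholesterol towards high-density lipoprotein. It had 160.2 CPM in the Gpnmb gate of knockout 4, 149 CPM in that of control 1 and 133 CPM in that of control 3, against 63.0, 88.6 and 66.4 CPM in Ly6Chi monocytes. The C1q gate had 132, 135 and 132 CPM and the Arg1-high gate 125, 137 and 116 CPM, ranges that overlap with that of the Gpnmb gate. The neutrophil-like gate was again at the low end, with 52.2, 71.6 and 46.1 CPM, overlapping with Ly6Chi monocytes in range and lower within each library. The log2 difference was 1.02 ± 0.10 in the Gpnmb gate (adjusted p = 9.61e-08), 0.86 ± 0.08 in the C1q gate (adjusted p = 3.59e-07) and -0.36 ± 0.08 in the neutrophil-like gate (adjusted p = 0.0141), a call lost in 5 of 9 alternatives, among them doubled cuts (-0.039, adjusted p = 0.937), no block (-0.35, adjusted p = 0.769) and the fit without control 3 (-0.29, adjusted p = 0.0807). The MHC class II, patrolling, interferon and Arg1-high gates were called higher as well, at 0.60 ± 0.06, 0.73 ± 0.09, 0.74 ± 0.10 and 0.82 ± 0.09. Doubled cuts moved Abcg1 to 1.31 in the C1q gate, 0.90 in the MHC class II gate and 1.18 in the patrolling gate.

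Nr1h3 (ENSMUSG00000002108, chr2:91184061-91202834, minus strand) encodes LXR alpha, the receptor itself, which in human macrophages also switches on its own gene. Its order of gates was not that of the transporters. The C1q gate was highest with 266 CPM in knockout 4, 208 CPM in control 1 and 247 CPM in control 3, against 101, 74.1 and 88.0 CPM in Ly6Chi monocytes. The MHC class II gate followed with 228, 198 and 196 CPM, and the Gpnmb gate had 172, 169.6 and 208 CPM, so these ranges overlap. The interferon gate, at 213, 178 and 168 CPM, and the patrolling gate, at 206, 182 and 160.0 CPM, ran into that of the Gpnmb gate. The neutrophil-like gate had 33.5, 48.1 and 40.3 CPM, below every other group. The log2 difference from Ly6Chi monocytes was 1.44 ± 0.07 in the C1q gate (adjusted p = 4.74e-11), 1.06 ± 0.09 in the Gpnmb gate (adjusted p = 2.61e-08) and -1.13 ± 0.13 in the neutrophil-like gate (adjusted p = 9.94e-05). The neutrophil-like call was lost at doubled cuts (-0.49, adjusted p = 0.0720) and without the block (-1.11, adjusted p = 0.0889). Doubled cuts moved Nr1h3 to 2.53 in the C1q gate and 1.82 in the Gpnmb gate. Gm13783, a gene on the same strand that overlaps Nr1h3, had 93 UMIs in all kept cells, and how the counting split reads between them is uncertain.

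Mylip (ENSMUSG00000038175, chr13:45389742-45412022, plus strand) encodes the ubiquitin ligase also called IDOL, an LXR target that limits the uptake of lipoprotein. The C1q gate had 37.9 CPM in knockout 4, 43.2 CPM in control 1 and 45.6 CPM in control 3, against 17.4, 23.7 and 22.9 CPM in Ly6Chi monocytes. The Gpnmb gate had 23.8, 33.5 and 35.7 CPM, with its lowest sum just above the highest Ly6Chi sum. The neutrophil-like gate had 10.4, 18.7 and 13.9 CPM. Mylip was higher in the C1q gate by a log2 difference of 0.96 ± 0.10 (adjusted p = 7.68e-07) and in the Gpnmb gate by 0.53 ± 0.12 (adjusted p = 0.00121), the second of which had an adjusted p of 0.0784 without the library block. It was lower in the neutrophil-like gate (-0.59 ± 0.14, adjusted p = 0.0184), a call lost in 6 of 9 alternatives, among them doubled cuts (-0.33, adjusted p = 0.511) and the fits without control 3 (-0.53, adjusted p = 0.113) or knockout 4 (-0.52, adjusted p = 0.120), and not called in the Arg1-high gate (0.18 ± 0.12, adjusted p = 0.302).

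**Figure D2:**
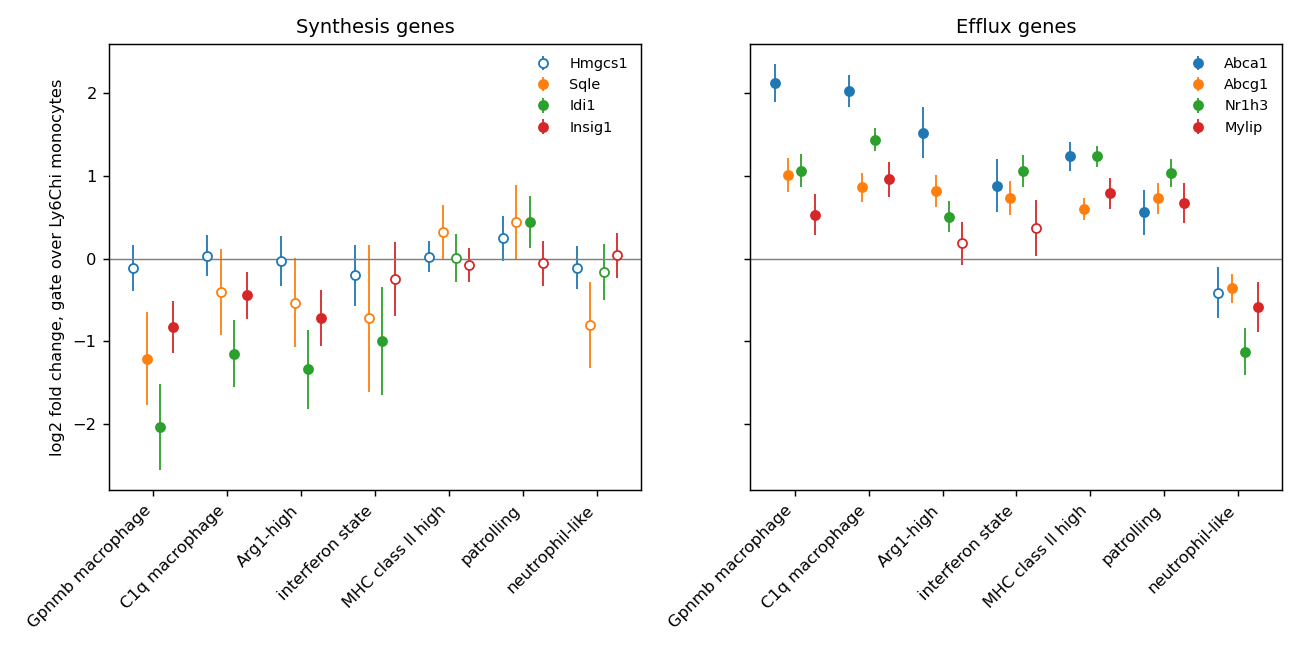
Log2 difference of each gate from Ly6Chi monocytes for the 8 genes, with 95% intervals from the edgeR fit with library as a block; filled points have an adjusted p under 0.05. The efflux genes lie above 0 in the Gpnmb and C1q gates, led by Abca1 at 2.13 and 2.03. Idi1 lies below 0 in these gates, at -2.04 and -1.15.

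Counts of called genes have to be read against the many genes that differ between these cell groups. In the Gpnmb gate 4 of the 8 genes were higher and 3 lower, where 18.9% of 11142 genes tested were higher and 20.4% lower. In the C1q gate 4 were higher and 2 lower, where 20.7% of all genes were higher and 21.2% lower. In the MHC class II gate 4 were higher and 0 lower (15.4% and 15% of all genes), and in the patrolling gate 5 were higher and 0 lower (12.4% and 12.4%). In the neutrophil-like gate 0 were higher and 3 lower (4.03% and 3.22%), in the interferon gate 3 were higher and 1 lower (7.45% and 4.01%), and in the Arg1-high gate 3 were higher and 2 lower (14.4% and 14.7%). The 5 calls of the patrolling gate were 3 without control 1, and the 3 of the neutrophil-like gate were 1 without control 3, 1 with DESeq2 and 0 at doubled marker cuts.

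Summed markers of other cell types differed between the gates and Ly6Chi monocytes. The 5 platelet markers summed to 1355, 607 and 543 UMIs per 1000000 in the Gpnmb gates of knockout 4, control 1 and control 3, and to 1659, 686 and 572 in the C1q gates, against 49.6, 36.7 and 53.0 in Ly6Chi monocytes; 4 to 5 of the 5 were detected in a Gpnmb gate and 3 to 4 in a C1q gate, Itga2b being at 0 in every C1q gate. The 9 hepatocyte markers summed to 78.0, 54.4 and 140.2 UMIs per 1000000 in the Gpnmb gates, against 35.2, 30.6 and 80.7 in Ly6Chi monocytes. The 6 Kupffer cell markers summed to 13.3, 53.6 and 34.9 in the C1q gates and to 8.34, 20.2 and 6.02 in the Gpnmb gates, against 1.13, 2.14 and 2.03 in Ly6Chi monocytes; 5 to 6 of the 6 were detected in a C1q gate and 3 to 4 in a Gpnmb gate, where Clec4f and Timd4 were at 0 in each library. Cycling markers went the other way, with 18.7, 16.9 and 13.6 UMIs per 1000000 in the Gpnmb gates, against 79.6, 42.9 and 15.2 in Ly6Chi monocytes. The source of the platelet, hepatocyte and Kupffer cell marker RNA was not tested, nor was its part in the differences. Without cells holding 3 or more cycling UMIs, Idi1 stood at -2.06 in the Gpnmb gate and -1.16 in the C1q gate.

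The summed levels put the contrast into 1 value per library. In the Gpnmb gate the 4 synthesis genes summed to 41.1 CPM in knockout 4, 34.4 CPM in control 1 and 37.9 CPM in control 3, against 70.5, 50.8 and 61.8 CPM in Ly6Chi monocytes. The 4 efflux genes summed to 476, 463 and 483 CPM in the Gpnmb gate, against 203, 212 and 206 CPM in Ly6Chi monocytes. The log2 ratio of synthesis over efflux in the Gpnmb gate minus that in Ly6Chi monocytes was -2.01 in knockout 4, -1.69 in control 1 and -1.93 in control 3, a mean of -1.88 ± 0.17 (SD, n = 3 libraries; no test was made on a sum over chosen genes). The mean difference was -1.65 ± 0.28 in the C1q gate, -1.27 ± 0.25 in the interferon gate, -1.25 ± 0.36 in the Arg1-high gate, -1.01 ± 0.16 in the MHC class II gate and -0.62 ± 0.11 in the patrolling gate. For neutrophil-like cells it was 0.56 ± 0.18, with 0.74, 0.38 and 0.55 in knockout 4, control 1 and control 3, and at doubled marker cuts it was -0.15.

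Neutrophil-like cells had synthesis sums that, at 67.8, 48.8 and 51.5 CPM, overlapped with Ly6Chi monocytes, and efflux sums that, at 117, 156 and 118 CPM, lay below them. The patrolling gate had efflux sums of 403, 415 and 322 CPM, all above those of Ly6Chi monocytes. Its synthesis sums were 83.3, 67.1 and 65.8 CPM, against 70.5, 50.8 and 61.8 CPM in Ly6Chi monocytes. They were higher within each library but overlapped in range. Among the synthesis genes only Idi1 was called there, and most alternatives lost that call. High efflux was thus found both beside synthesis sums below those of Ly6Chi monocytes, as in the Gpnmb gate, and beside sums not below them. Over the 24 sums of 8 groups and 3 libraries, which share libraries and in part cells, Pearson's correlation of the synthesis sum and the efflux sum was -0.29. Within the efflux genes it was 0.85 for Abca1 with Abcg1 and 0.90 for Nr1h3 with Mylip. Across the sides it was -0.64 for Idi1 with Abca1 and -0.0032 for Hmgcs1 with Abca1. In single cells thinned to 3000 UMIs the correlation of the sums was -0.053 over 3693 cells of knockout 4, -0.006 over 3564 cells of control 1 and -0.042 over 6712 cells of control 3, at a mean of only 0.157 to 0.182 synthesis UMIs per cell.

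**Figure D3:**
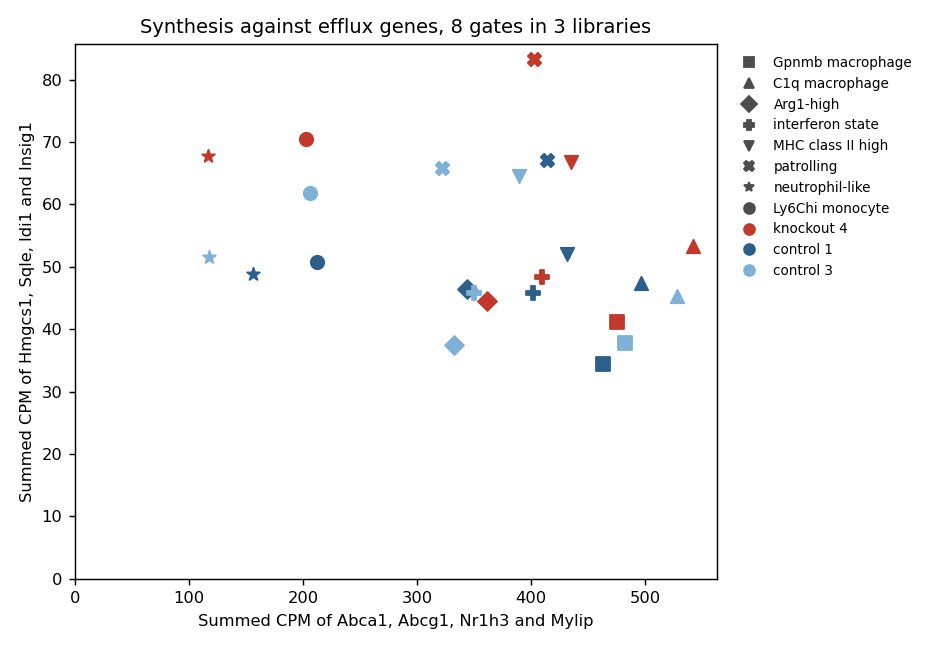
Summed CPM of the 4 synthesis genes (vertical axis) against summed CPM of the 4 efflux genes (horizontal axis) in 8 cell groups and 3 libraries, 24 points. The neutrophil-like and Ly6Chi groups lie at the left, at 117 to 212 CPM of efflux. The patrolling group lies at 322 to 415 CPM of efflux and 65.8 to 83.3 CPM of synthesis, overlapping with Ly6Chi monocytes on the synthesis axis. The Gpnmb gate is low on synthesis at 34.4 to 41.1 CPM and high on efflux at 463 to 483 CPM.

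The wider pathway was read through 4 gene lists, which contain the 8 genes. Of 20 sterol synthesis enzymes, 18 were tested in the Gpnmb gate, 11 were lower and 0 higher than in Ly6Chi monocytes at a median log2 difference of -0.70, where the median over all genes tested was -0.0041. Fdps, which makes farnesyl diphosphate, had 10.7, 13.5 and 10.5 CPM in the Gpnmb gates of knockout 4, control 1 and control 3, against 33.8, 30.5 and 20.8 CPM in Ly6Chi monocytes (-1.29 ± 0.15, adjusted p = 1.43e-06). Cyp51, the lanosterol demethylase, was lower by a similar amount (-1.35 ± 0.17, adjusted p = 2.99e-06). The synthesis list had 9 lower and 1 higher of 18 in the C1q gate (median -0.54), 11 lower and 0 higher of 19 in the Arg1-high gate (median -0.53), 3 lower of 20 in the MHC class II gate, 3 lower of 17 in the interferon gate, 2 higher and 1 lower of 18 in the patrolling gate, and 0 of 18 in the neutrophil-like gate, where 3 had an unadjusted p under 0.05. Of all genes tested, 20.4% were lower in the Gpnmb gate, 21.2% in the C1q gate, 14.7% in the Arg1-high gate, 15% in the MHC class II gate, 4.01% in the interferon gate and 12.4% in the patrolling gate, so the MHC class II and patrolling counts are near that background. The 1 enzyme higher in the C1q gate was Dhcr7 (0.80 ± 0.25, adjusted p = 0.0182).

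The list of SREBP control and sterol uptake had 4 lower and 0 higher of 10 in the Gpnmb gate (20.4% of all genes lower), with a median of -0.16. Stard4, a carrier of sterols inside the cell, had 2.81, 2.69 and 4.06 CPM in the Gpnmb gates and 5.52, 4.8 and 5.55 CPM in the C1q gates, against 10.8, 7.89 and 11.2 CPM in Ly6Chi monocytes, in the order knockout 4, control 1 and control 3. It was lower in the Gpnmb gate (-1.65 ± 0.23, adjusted p = 1.11e-05) and in the C1q gate (-0.93 ± 0.20, adjusted p = 0.00105). Srebf2 was lower in both gates as well (-0.54 ± 0.11 and -0.56 ± 0.10). Tmem97 was higher in the C1q gate (0.84 ± 0.15, adjusted p = 0.000188). Among neutrophil-like cells 0 of 10 were called by edgeR, 0 had an unadjusted p under 0.05, and Srebf2 stood at -0.10 ± 0.10 (adjusted p = 0.639).

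Among the 16 genes of LXR and its targets, 9 were higher and 1 lower of 15 tested in the Gpnmb gate (median 0.53), where 18.9% of all genes were higher, and 10 were higher and 1 lower in the C1q gate (median 0.74), where 20.7% of all genes were higher. Mertk, a receptor for dead cells, had 55.7, 51.5 and 43.5 CPM in the Gpnmb gates, against 12.8, 16.4 and 13.9 CPM in Ly6Chi monocytes (1.78 ± 0.12, adjusted p = 6.25e-10). Apoe, the apolipoprotein that carries exported lipid, had 7918, 6649 and 9740 CPM in the Gpnmb gates, against 2157, 2749 and 4208 CPM in Ly6Chi monocytes (1.44 ± 0.09, adjusted p = 2.40e-10); hepatocytes make it too, and their markers move with the gate as given above. Lpl, lipoprotein lipase, was higher in the Gpnmb gate (2.22 ± 0.09) and in the C1q gate (2.17 ± 0.15). The gene of this list that was lower in the Gpnmb gate was Smpdl3a, a phosphodiesterase (-0.82 ± 0.07), which was also lower in the C1q gate (-0.99 ± 0.07).

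The neutrophil-like gate had 7 lower and 0 higher of the 15 LXR list genes tested, at a median of -0.36, where 3.22% of all genes were lower. Apoe had 918, 1632 and 2153 CPM there (-0.98 ± 0.06, adjusted p = 4.02e-07), below Ly6Chi monocytes in each library. Pltp, the phospholipid transfer protein, had 2.64, 12.99 and 8.91 CPM in the neutrophil-like gate, against 12.8, 26.4 and 23.1 CPM in Ly6Chi monocytes (-1.41 ± 0.19, adjusted p = 0.000325). In the patrolling gate 8 of the list were higher and 0 lower (12.4% of all genes higher), led by Pltp at 98.9, 85.2 and 65.4 CPM (1.90 ± 0.16, adjusted p = 2.88e-08). There were 10 higher and 1 lower in the MHC class II gate (15.4% of all genes higher), 7 higher and 1 lower in the Arg1-high gate (14.4%), and 6 higher and 2 lower in the interferon gate (7.45%).

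Of 11 genes of other cholesterol handling, 8 were higher and 2 lower in the Gpnmb gate. Of all genes, 18.9% were higher there and 20.4% lower. Cd36, the scavenger receptor for oxidised lipoprotein, had 639, 373 and 279 CPM there, against 57.4, 40.3 and 29.6 CPM in Ly6Chi monocytes (3.30 ± 0.09, adjusted p = 8.80e-16). Nceh1 and Lipa, the hydrolases that free cholesterol from its esters, were higher (1.59 ± 0.08 and 1.10 ± 0.08). Scarb1, a receptor for high-density lipoprotein, and Cyp27a1, the sterol 27-hydroxylase, were lower (-1.23 ± 0.10 and -1.72 ± 0.21). The C1q gate had 8 higher and 2 lower as well, where 20.7% of all genes were higher and 21.2% lower. The neutrophil-like gate had 0 higher and 5 lower of 10 tested, where 4.03% of all genes were higher and 3.22% lower.

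**Figure D4:**
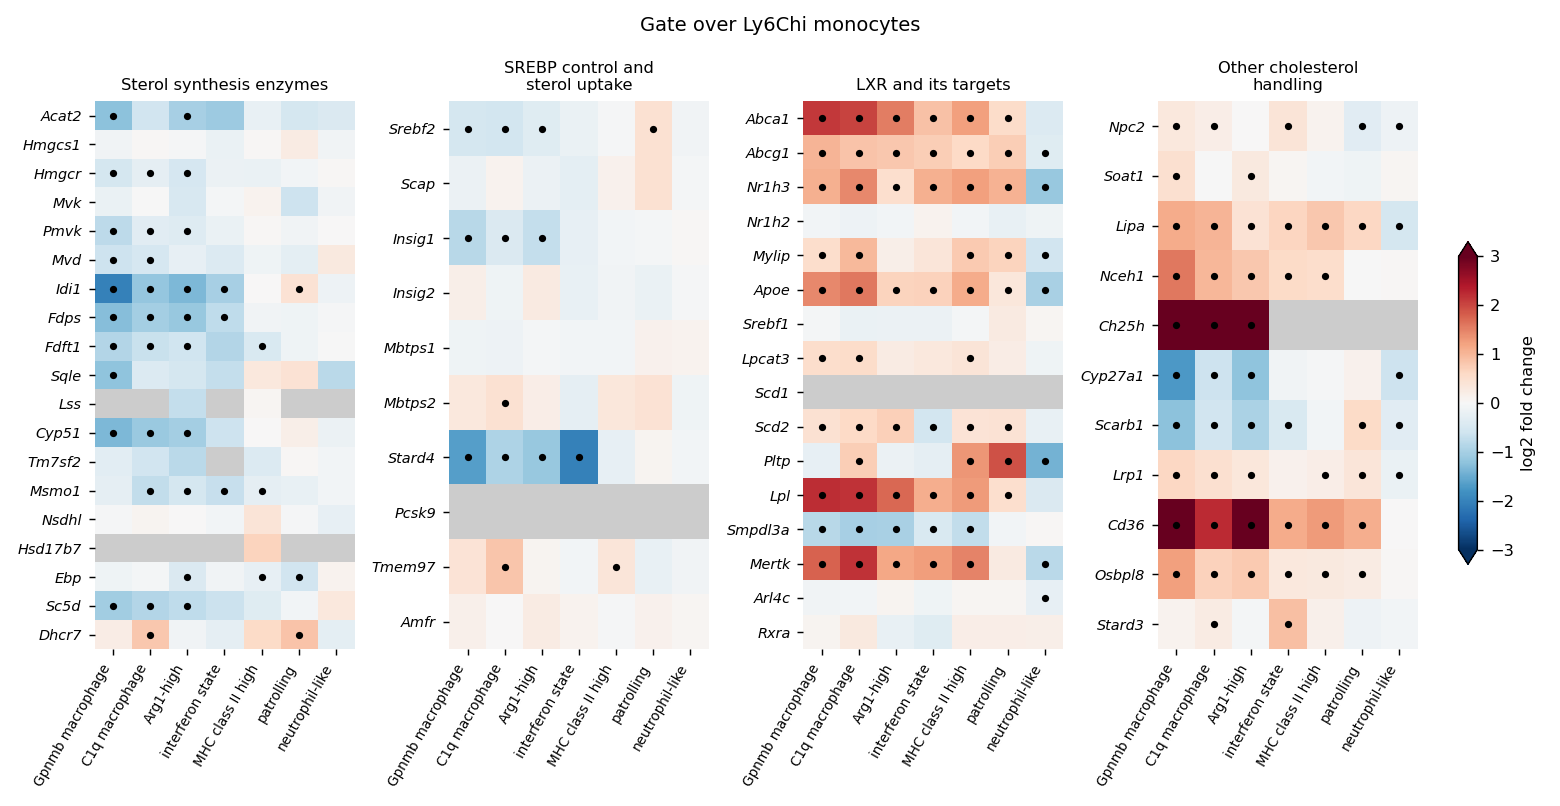
Log2 difference from Ly6Chi monocytes (colour, from -3 in blue to 3 in red) of genes of the 4 lists (rows) in the 7 gates (columns); black dots mark an adjusted p under 0.05 and grey cells were not tested. In the Gpnmb column 9 LXR list genes carry a dot on the high side, and Fdps and Cyp51 are among the synthesis enzymes with a dot on the low side.

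Knockout and control libraries were compared next, over all kept cells. Of 14793 genes tested by edgeR 22 were higher and 1 lower in the knockout, 0.155% in all, and 1241 had an unadjusted p under 0.05. None of the 8 genes was called, none had an unadjusted p under 0.05, and DESeq2 called 0 of them as well. Over all cells Idi1 had 12.3 CPM in knockout 4, against 6.97 CPM in control 1 and 10.6 CPM in control 3, with a log2 difference of 0.48 ± 0.28 (95% interval -0.18 to 1.15, adjusted p = 0.674). Mylip had 23.7 CPM in knockout 4, against 30.4 and 28.2 CPM in the controls (-0.30 ± 0.16, 95% interval -0.68 to 0.07, adjusted p = 0.652). Both knockout values lay outside the range of the 2 controls, and with 1 control left out in turn Idi1 stood at 0.22 to 0.82.

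Abca1 had 51.5 CPM in knockout 4, against 50.5 CPM in control 1 and 42.5 CPM in control 3 (0.15 ± 0.17, 95% interval -0.25 to 0.55), and stood at 0.28 without control 1 and 0.023 without control 3. Nr1h3 had 142 CPM, against 131 and 130.2 CPM (0.12 ± 0.15, 95% interval -0.23 to 0.47). Sqle had 6.10 CPM, against 3.97 and 5.79 CPM (0.32 ± 0.30, 95% interval -0.40 to 1.03), and stood at 0.077 without control 1 and 0.61 without control 3. Insig1 had 19.5 CPM, against 16.9 and 17.6 CPM (0.18 ± 0.16, 95% interval -0.21 to 0.57). Hmgcs1, at 23.1 CPM against 20.1 and 24.4 CPM, and Abcg1, at 99.3 CPM against 115 and 83.3 CPM, lay between their controls. Without control 1 and without control 3 Hmgcs1 was at -0.073 and 0.20, and Abcg1 at 0.26 and -0.22. The intervals of Idi1 and Sqle reach 1.15 and 1.03, so a doubling was within what these 3 libraries allow.

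The pooled values mix groups whose shares differed. The Arg1-high gate held 26.8% of the cells of knockout 4, against 8.22% in control 1 and 2.63% in control 3, and the Gpnmb gate held 16.6%, against 10.3% and 6.44%. Without Arg1-high cells the knockout difference was -0.31 for Abca1 and -0.12 for Abcg1, with neither called. The log2 ratio of synthesis over efflux over all cells was -2.37 in knockout 4, against -2.77 in control 1 and -2.28 in control 3, so the knockout library lay between the controls. In the neutrophil-like gate the ratio was -0.78 in knockout 4, against -1.68 in control 1 and -1.19 in control 3, and in Ly6Chi monocytes -1.53, against -2.06 and -1.74; both knockout values were above both controls, with no test.

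Within Ly6Chi monocytes, where 0.0322% of 12407 genes were called by edgeR, none of the 8 genes was called and 1, Idi1, had an unadjusted p under 0.05. Idi1 had 17.4 CPM in knockout 4, against 8.79 CPM in control 1 and 11.5 CPM in control 3 (0.80 ± 0.24, unadjusted p = 0.0130, adjusted p = 0.602). Cycling markers were also higher in this group of knockout 4, as given above; without cells holding 3 or more cycling UMIs the difference was 0.84 (adjusted p = 0.551). In the neutrophil-like gate (0.00992% called) Idi1 had 17.0 CPM, against 8.55 and 8.13 CPM (1.05 ± 0.29, adjusted p = 0.294), and Insig1 26.9 CPM, against 18.7 and 17.4 CPM (0.60 ± 0.23, adjusted p = 0.424). None of the 8 genes was called there, nor in the Gpnmb gate (3.06% called), the C1q gate (0.445%), the MHC class II gate (0.203%), the patrolling gate (0%) or, of 6 genes tested, the interferon gate (0.523%). An unadjusted p under 0.05 was held by 2 of the 8 in the neutrophil-like gate, by 1, Mylip, in the Gpnmb gate (-0.55 ± 0.26, adjusted p = 0.319) and by 0 in the other 4, and DESeq2 called 0 in each of these gates.

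In the Arg1-high gate, where 9.61% of 10288 genes were called and 5.07% were higher, Abca1 was the 1 gene of the 8 called. It had 90.5 CPM in knockout 4 (711 UMIs), against 60.04 CPM in control 1 (211 UMIs) and 67.1 CPM in control 3 (156 UMIs). Abca1 was higher by a log2 difference of 0.54 ± 0.16 (95% interval 0.21 to 0.87, adjusted p = 0.0272), a test of 1 library against 2 whose spread is borrowed from other genes. The call was lost with DESeq2 (0.53, adjusted p = 0.476), with library totals in place of TMM (0.43, adjusted p = 0.0737) and in thinned cells (0.40, adjusted p = 0.405). The other 7 genes there had adjusted p-values of 0.468 or more. Platelet markers summed to 1057 UMIs per 1000000 in the Arg1-high cells of knockout 4, against 545 in control 1 and 647 in control 3. Arg1 itself stood at 5195, against 3234 and 3019, and the Gpnmb panel at 5810, against 4532 and 4327. The C1q panel was not higher, at 3156 against 3331 and 3236. The part of these differences in the result was not tested.

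**Figure D5:**
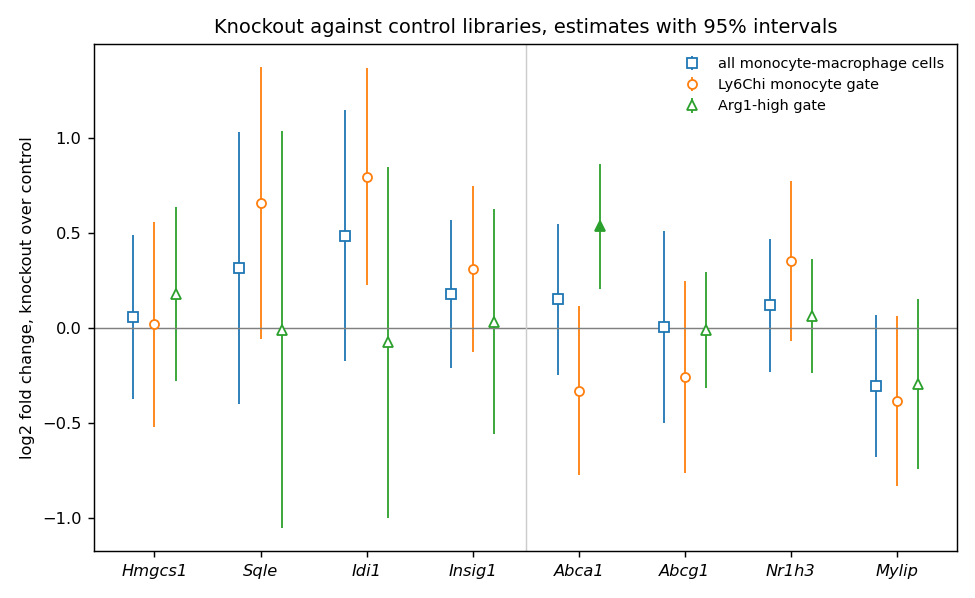
Log2 difference of knockout 4 from the 2 controls for the 8 genes over all cells, in Ly6Chi monocytes and in the Arg1-high gate, with 95% intervals from edgeR; filled points have an adjusted p under 0.05. Abca1 in the Arg1-high gate, at 0.54, is the single filled point.

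Whether the knockout difference was not the same in a gate as in Ly6Chi monocytes was tested as an interaction, on 6 sums with 1 residual degree of freedom. None of the 8 genes was called in any of the 7 gates. Over all genes 0.944% were called in the Gpnmb gate, 0.188% in the C1q gate, 0.769% in the MHC class II gate, 0.348% in the patrolling gate, 0.0347% in the neutrophil-like gate, 0.19% in the interferon gate and 0.106% in the Arg1-high gate. Between 0 and 4 of the 8 had an unadjusted p under 0.05, depending on the gate, and DESeq2 called 0 in each. The lowest adjusted p was that of Abca1 in the Arg1-high gate (0.86 ± 0.16, adjusted p = 0.0815). With library totals this became 0.0358, and Nr1h3 in the Gpnmb gate, at -0.46 ± 0.14 (adjusted p = 0.116), became -0.49 with an adjusted p of 0.0297.

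The LXR list held the genes of the pathway for which an interaction was called, in every gate but the neutrophil-like one. Lpl was among them in the C1q gate, where its gate difference was larger in the knockout by 1.08 ± 0.14 on the log2 scale. For Apoe the gate difference was larger in the knockout by 0.63 ± 0.09 on the log2 scale in the Gpnmb gate (adjusted p = 1.55e-05) and by 0.86 ± 0.11 in the C1q gate (adjusted p = 0.000854). In Ly6Chi monocytes Apoe had 2157 CPM in knockout 4, against 2749 and 4208 CPM in the controls, and in the Gpnmb gate 7918 CPM, against 6649 and 9740 CPM. These tests rest on 1 knockout library and on a spread borrowed from other genes. Lpl had 85.8 CPM in the Ly6Chi monocytes of knockout 4, against 381 CPM in control 1 and 139 CPM in control 3, so the controls themselves lay far apart. Among Arg1-high cells it had 272 CPM in knockout 4, against 845 and 718 CPM in the controls, and over all cells 228 CPM, against 677 and 245 CPM. Cd36 had 501 CPM in the Arg1-high cells of knockout 4, against 354 and 324 CPM in the controls. Between knockout and control, edgeR called Lpl lower in the Arg1-high gate (-1.50 ± 0.14) and the Gpnmb gate (-1.09 ± 0.19). It called Cd36 higher in both (0.58 ± 0.13 and 0.97 ± 0.17). The difference of Cd36 was not particular to these gates. Without a call, it was 0.76 in Ly6Chi monocytes, 1.43 in the interferon gate, between these values in the remaining gates, and 1.28 over all cells. Other genes of the lists were called in the Arg1-high and Gpnmb gates in both directions, where 9.61% and 3.06% of all genes were called. Over all cells 0 genes of the 4 lists were called by edgeR, and 4 had an unadjusted p under 0.05, 1 of them in the synthesis list and 1 in the LXR list; medians were 0.17 for the synthesis list and 0.03 for the LXR list, against -0.01 over all genes.

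The genes whose levels ran most like each side were taken by Pearson's correlation of log2(CPM + 1) over the 24 sums, among 5624 genes with a mean of at least 20 CPM. For the efflux sum these were Mmp14 (0.98), Acp5 (0.97), Pparg (0.96), Itga9 (0.95) and Acp2 (0.95). For the synthesis sum they included St3gal1 (0.85), Rnf149 (0.84), Capzb (0.83) and Rps23-ps1 (0.83). The sums share libraries and cells, and these values are a description.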

How the data were processed

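The values are UMI counts per gene and cell barcode that the authors deposited as 10x matrices of 3 libraries; per the submitters' processing notes they were made with bcl2fastq and Cell Ranger 3.0.2 on GRCm38. The chemistry tags the 3′ end of a transcript, so levels are not compared between genes. Barcodes under 500 genes or over 10% mitochondrial UMIs were dropped, as were cells with 3 or more UMIs of T and NK or B cell markers. No doublet caller was run and doublets were not removed; 2.45% of cells in knockout 4, 8.15% in control 1 and 10.96% in control 3 held over 2 times their library's median UMIs.

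A gate holds cells whose marker panel reached 60 (Gpnmb, C1q, MHC class II, Ly6Chi), 20 (patrolling, neutrophil-like, interferon) or 10 (Arg1) UMIs per 10000. The cuts were set after the panels' distributions were seen; 359, 237 and 298 cells lay within 20% of the Gpnmb cut. The genes, gene lists and panels were chosen with earlier results of these data known. UMIs were summed per library and gate and tested with edgeR 4.0.16 in R 4.3.3 (TMM, filterByExpr, quasi-likelihood test, two-sided, Benjamini-Hochberg over all genes tested, threshold 0.05), with library as a block between gates. Each library gives both gates of such a contrast, so the library pairs the sums. CPM are counts per 1000000 of the TMM-scaled total. Knockout against control rests on 1 and 2 libraries and 1 residual degree of freedom. DESeq2 1.42.0 was an alternative, beside library totals, no filter on low counts, doubled cuts, thinning to 3000 UMIs, leaving out a library, and, added after the data were seen, leaving out Arg1-high, hepatocyte-marked and cycling cells. Scripts were tested on simulated data. Of each list the up to 4 genes with the smallest p in each direction were eligible to be named; some such results are not reported here. Promoters come from RefSeq.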

Additional observations from a re-analysis of the deposited data

How the results depend on the processing

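For the counts of called genes and the synthesis over efflux differences, 164 alternatives stayed close (counts within 1.5 times, differences within 1 SD of the libraries) and 18 did not. Doubling the marker cuts moved the difference of the log2 ratio from Ly6Chi monocytes to -2.57 in the Gpnmb gate, -2.58 in the C1q gate and -1.62 in the MHC class II gate. It became -0.99 in the patrolling gate, -0.15 in the neutrophil-like gate and -2.07 in the Arg1-high gate. Stricter gates hold fewer and more strongly marked cells. The Ly6Chi group changed as well, to 692 cells in knockout 4, 344 in control 1 and 2220 in control 3. Its own cut was doubled, as were the cuts that keep cells of other gates out of it. How much of each shift came from the gate and how much from the Ly6Chi group was not tested. The interferon gate was not run at doubled cuts, since a library then held under 50 cells. Knockout calls in the Arg1-high gate were 0 with DESeq2, 0 with library totals and 0 in thinned cells, and interaction calls were 1 in the Gpnmb gate and 1 in the Arg1-high gate with library totals.

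Without the library as a block, 3 genes were called in the patrolling gate and 0 in the neutrophil-like gate, 6 in the Gpnmb gate and 5 in the C1q gate. Leaving out 1 library gave 3 to 5 calls in the patrolling gate and 1 to 3 in the neutrophil-like gate, where DESeq2 called 1, thinning 1 and doubled cuts 0. Between knockout and control libraries the design pairs nothing. The labels name no pairs of knockout and control libraries, and 1 knockout library allows no paired test. The gate contrasts are the ones paired by library. The cause of these shifts was not tested.

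For single genes, 563 alternatives counted as unchanged. A fit with a p-value counted so if it kept direction and call. Knockout fits with 1 control left out give no p-value, and for genes not called they counted so within 1 SE, whatever the sign. Hmgcs1 over all cells, at -0.073 without control 1 against 0.058, is such a case. Among fits with a p-value, signs reversed for 23 alternatives, all of values not called. For knockout against control over all cells, Abcg1 was -0.014 with no filter, -0.045 with library totals, -0.0038 without cells holding 3 or more hepatocyte UMIs and -0.12 without Arg1-high cells, Hmgcs1 -0.010 in thinned cells and Abca1 -0.31 without Arg1-high cells. Doubled cuts gave -0.10 for Hmgcs1 and 0.053 for Sqle in the C1q gate, and -0.26 for Insig1 and 0.055 for Abca1 in the neutrophil-like gate. Thinning gave -0.034 for Hmgcs1 in the C1q gate and -0.077 for Insig1 in the neutrophil-like gate. Idi1 in the MHC class II gate was -0.046 with DESeq2, -0.053 without the block, -0.011 with library totals and -0.035 without cycling cells. Leaving out 1 library gave -0.26 to 0.18 for Idi1 and -0.0051 to 0.050 for Hmgcs1 in the MHC class II gate, -0.014 to 0.17 for Hmgcs1 in the C1q gate, -0.083 to 0.12 for Insig1 in the neutrophil-like gate, -0.53 to 0.083 for Insig1 in the interferon gate and -0.15 to 0.13 for Hmgcs1 in the Arg1-high gate. Low counts limit Idi1 and Sqle: a Gpnmb gate held 4 to 16 UMIs of Idi1.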
